A study of Mus musculus with 8 samples.

Results

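The 10 genes described here, Kdm6a, Kdm6b, Setd7, Ezh2, Suz12, Smarca4, Chd4, Ep300, Cdk9 and Med1, encode chromatin cofactors that T-bet or GATA3 can act with. They were chosen by name, with earlier results of these data known, from 54146 genes in the files. All 10 were among the 14791 genes tested after a filter on low counts. The question was whether the supply of these cofactors differed between cells with T-bet, GATA3, both or neither. RNA-seq was performed in EL4 cells, a mouse T lymphoma line that carries its own Gata3. The GFP + Plum line carried only the marker proteins GFP and mPlum, and the T-bet + Plum line carried FLAG-T-bet and mPlum. The GFP + GATA3 line carried GFP and HA-GATA3, and the T-bet + GATA3 line carried FLAG-T-bet and HA-GATA3. All lines were stimulated with PMA at 50 ng/ml and ionomycin at 1 µM for 4 hours before harvest, so no unstimulated level was measured. Each line had 2 libraries, which are separate harvests of 1 stable line. The p-values thus measure the spread between harvests, and a difference between lines cannot be told apart from one that arose when the lines were made or grown. The libraries are of whole cultures, in which fewer expressing cells and less RNA per cell cannot be told apart.

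T-bet and GATA3 direct TH1 and TH2 differentiation by binding regulatory DNA and bringing in enzymes that modify or move nucleosomes. Polycomb complex PRC2 places methyl groups on lysine 27 of histone H3 and keeps genes silent, with Ezh2 as its catalytic subunit and Suz12 as a core subunit. Kdm6a (UTX) and Kdm6b (JMJD3) remove that mark, and Setd7 adds a methyl group to lysine 4 of histone H3 and to several other proteins. Smarca4 (BRG1) is an ATPase of the SWI/SNF remodelling complex, Chd4 is the ATPase of the NuRD complex, and Ep300 (p300) acetylates histones at enhancers. Cdk9 is the kinase of P-TEFb, which releases paused RNA polymerase, and Med1 is a subunit of Mediator, which links enhancers to the polymerase.

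The libraries held between 8038284 and 16003190 estimated counts, and the gene with the fewest counts, Kdm6a, had between 171 and 374 in each library. The labels were checked against the introduced genes. Tbx21, which encodes T-bet, was at 129 to 160 CPM (counts relative to the TMM-scaled library size) in the 4 T-bet libraries and at 1.78 to 3.59 CPM in the others. Gata3 was at 165 to 326 CPM in the 4 HA-GATA3 libraries and at 25.8 to 53.3 CPM in the others, and was 1.59-fold lower in the T-bet lines (edgeR FDR = 0.0174). Of 10 T cell markers 8 were above 1 TPM (a level corrected for transcript length) in at least 1 library, with Cd4 at 0.235 to 2.49 TPM and with Cd247 and Cd8a below it in every library, and of 15 markers of B, myeloid, fibroblast and epithelial cells only Cd68 was above 1 TPM in any library.

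In the T-bet lines, Kdm6b was higher than in the lines without T-bet, and Ezh2, Setd7 and Ep300 were lower. The 10 genes were thus called in 4 cases, 1 higher and 3 lower, in the comparison of the 4 T-bet libraries with the 4 others (FDR of at most 0.05). In the same comparison 15.2% of all genes tested were called, 8.55% higher and 6.61% lower. In CPM, the T-bet libraries lay all above the others for Kdm6b, as for 12.5% of all genes tested, and all below them for Kdm6a, Setd7, Ezh2 and Ep300, as for 10.2%. The median log2 FC (fold change) of the 10 genes was -0.17, against 0.02 for all genes tested. None of the 10 genes was called where only HA-GATA3 differed, in comparisons that called 0.0203% to 0.0608% of all genes. With so few calls over all genes, 0 of 10 says little about these genes.

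**Figure D1:**
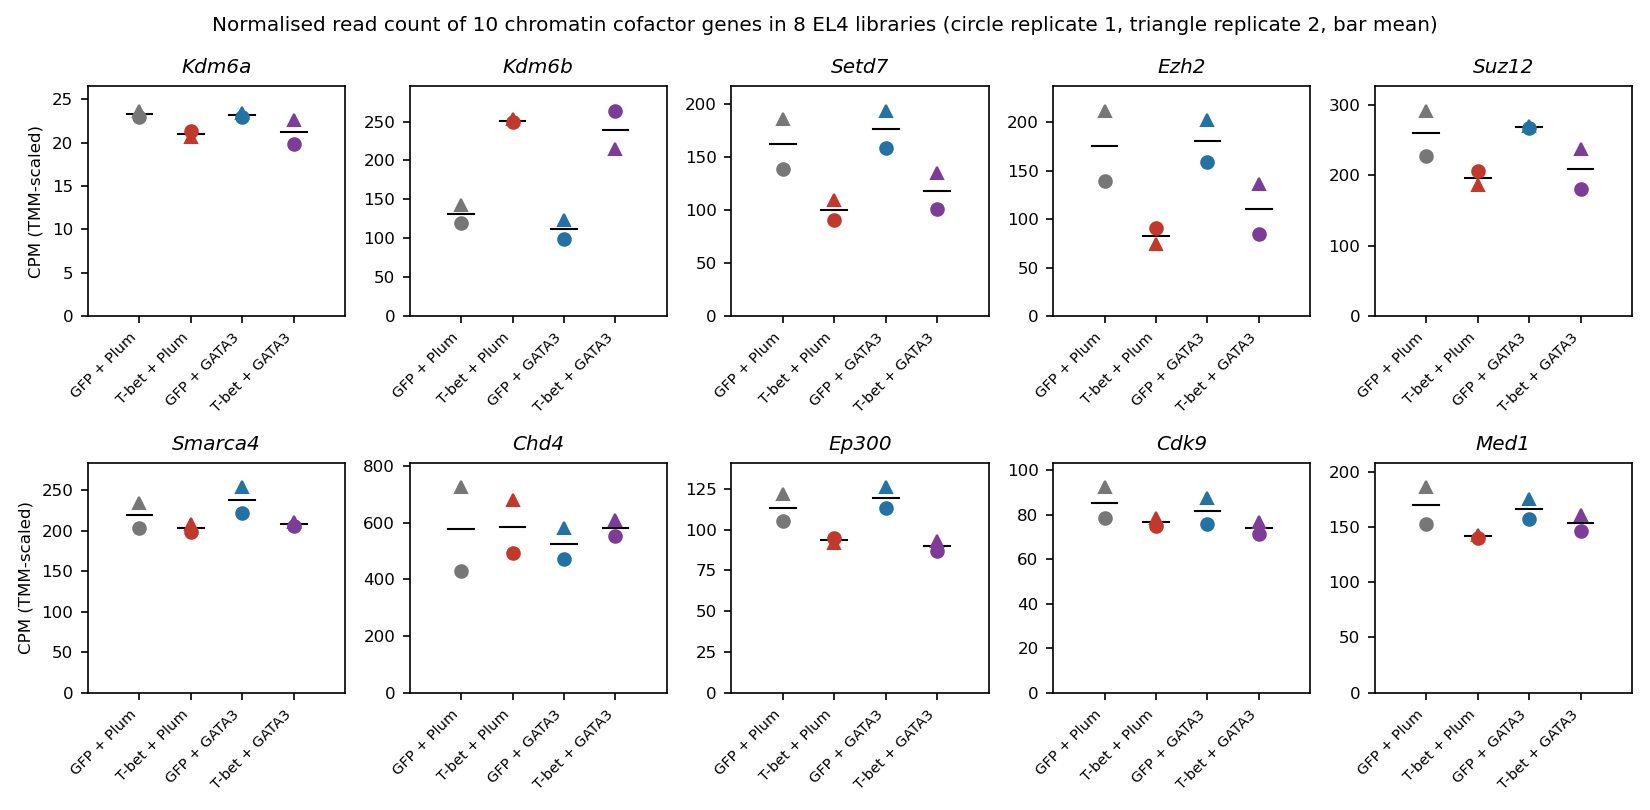
CPM of each of the 10 genes (y axis, from 0, TMM-scaled) in the 8 libraries by line (x axis), with circles for replicate 1, triangles for replicate 2 and bars for the mean of 2 libraries. Kdm6b sits at 215 to 264 CPM in the T-bet libraries and at 99.1 to 143 CPM in the others, whereas Ezh2, Setd7 and Ep300 lie lower in all 4 T-bet libraries.

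The demethylase gene Kdm6b (ENSMUSG00000018476.7, chr11:69398508-69413675 on the minus strand of GRCm38) had 119 and 143 CPM in replicates 1 and 2 of GFP + Plum, and 99.1 and 124 CPM in those of GFP + GATA3. With T-bet it had 249 and 253 CPM when mPlum was the partner and 264 and 215 CPM when HA-GATA3 was. All 4 T-bet libraries were above the 4 others. The increase was 2.03-fold (log2 FC = 1.02, SE 0.12, edgeR FDR = 0.000941). On the TPM scale the gene was at 23.0, 24.0, 19.7 and 23.6 without T-bet and at 44.8, 45.3, 42.4 and 36.7 with it. Its protein-coding transcript of 6654 bases took 98.3% to 99.3% of the counts of the gene, so the increase lay in the coding transcript.

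Kdm6b was called in all 3 pairwise comparisons made between a line with T-bet and a line without it, and T-bet + Plum was not compared with GFP + GATA3. Between T-bet + Plum and GFP + Plum the log2 FC was 0.94 (SE 0.16, edgeR FDR = 0.0145), and 6.20% of all genes were called there. Between T-bet + GATA3 and GFP + GATA3 it was 1.10 (SE 0.16, FDR = 0.00778), beside 5.77% of all genes. Between T-bet + GATA3 and GFP + Plum it was 0.87 (SE 0.16, FDR = 0.0217), beside 4.87% of all genes. These comparisons share libraries, so they are not independent of each other. Kdm6b was also the only one of the 10 genes called in the test of any difference over the 4 lines (FDR = 0.00658), in which 7.42% of all genes were called. In the pooled T-bet comparison it was called whichever library was left out, with an FDR between 0.00143 and 0.00718. The pairwise calls each rested on single libraries, as the comparison without HA-GATA3 lost it without either T-bet + Plum library (FDR = 0.0770 and 0.105) or GFP + Plum replicate 1 (FDR = 0.0557).

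Its paralog Kdm6a (ENSMUSG00000037369.17, chrX:18162575-18279936, plus strand) had the lowest level of the 10 genes. It was at 23.0, 23.7, 23.0 and 23.4 CPM without T-bet, in the order GFP + Plum and GFP + GATA3, and at 21.3, 20.7, 19.9 and 22.6 CPM with T-bet. The 4 T-bet libraries lay below the others by a narrow margin. The log2 FC was -0.14 (SE 0.10) and was not called (edgeR FDR = 0.388). In coding TPM, the TPM of protein-coding transcripts only, the ratio of Kdm6b to Kdm6a was 3.60 and 4.98 in GFP + Plum and 3.14 and 3.66 in GFP + GATA3. It was 9.21 and 8.95 in T-bet + Plum and 9.36 and 5.99 in T-bet + GATA3. The RNA of these enzymes thus stood between 3.14 and 4.98 to 1 without T-bet and between 5.99 and 9.36 to 1 with it.

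Of 10 genes for demethylases of lysine 27 or lysine 4 of histone H3, 8 could be tested, and Kdm6b and Kdm2b rose in the T-bet lines while none fell. In this comparison 8.55% of all genes tested rose and 6.61% fell. Kdm2b, which demethylates histone H3 and brings a form of PRC1 to unmethylated CpG islands, rose 1.61-fold (log2 FC = 0.69, SE 0.13, edgeR FDR = 0.0106). Between the lines without HA-GATA3 its log2 FC was 0.37 and was not called (FDR = 0.331). Between those with HA-GATA3 it was 1.01 (FDR = 0.0184). The median log2 FC of the 8 was -0.04, close to that of all genes. Kdm1a, a demethylase of lysine 4, had a log2 FC of -0.20 (FDR = 0.486), and Kdm5c, another, of -0.11 (FDR = 0.448).

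The methyltransferase gene Setd7 (ENSMUSG00000037111.9, chr3:51515319-51560879, minus strand) had 139 and 186 CPM in the GFP + Plum replicates and 159 and 194 CPM in GFP + GATA3. The T-bet + Plum replicates had 90.7 and 110 CPM, and T-bet + GATA3 had 101 and 135 CPM. The highest T-bet library was just below the lowest of the others. The decrease was 1.55-fold (log2 FC = -0.64, SE 0.15, edgeR FDR = 0.0231). Neither line pair alone was called, with a log2 FC of -0.69 (FDR = 0.102) between the lines without HA-GATA3 and of -0.58 (FDR = 0.168) between those with it. The pooled call was held with 3 of the 8 libraries left out in turn and lost with the other 5, with an FDR of up to 0.0960 (without T-bet + Plum replicate 1).

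The summed TPM of Setd7 does not describe its coding transcript. Its only protein-coding transcript, of 7411 bases, took 91.4% to 94.6% of the gene's counts but 38.5% to 53.6% of its TPM, the rest being short non-coding transcripts. In coding TPM Setd7 was at 20.2 to 28.1 without T-bet and 12.0 to 18.4 with it. With protein-coding transcripts only, an alternative chosen after the data were seen, the log2 FC was -0.61 (FDR = 0.0223).

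In the T-bet lines 6.61% of all genes tested fell. Among 16 genes for lysine 4 methyltransferases and their core subunits, all tested, 3 fell there and none rose. These were Setd7, Kmt2c, a methyltransferase of enhancers (log2 FC = -0.58, SE 0.10, edgeR FDR = 0.00671), and Men1, the menin subunit of other such complexes (log2 FC = -0.40, FDR = 0.0138). The log2 FC was below 0 for 13 of the 16, with a median of -0.12, against 0.02 for all genes tested. Kmt2d and Wdr5, a methyltransferase and a core subunit, had log2 FCs of -0.10 (FDR = 0.470) and -0.12 (FDR = 0.393).

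The PRC2 gene Ezh2 (ENSMUSG00000029687.16, chr6:47530139-47595341, minus strand) had the largest decrease of the 10 genes in the T-bet lines. The GFP + Plum replicates had 139 and 212 CPM, and those of GFP + GATA3 had 159 and 202 CPM. The T-bet + Plum replicates had 90.5 and 74.8 CPM, and T-bet + GATA3 had 84.8 and 136 CPM. All 4 T-bet libraries were below the others, although T-bet + GATA3 replicate 2 came close to GFP + Plum replicate 1. The decrease was 1.86-fold (log2 FC = -0.90, SE 0.19, edgeR FDR = 0.0180). Between the lines without HA-GATA3 the log2 FC was -1.09 (SE 0.28, FDR = 0.0607), and between those with it -0.70 (SE 0.27, FDR = 0.201), so that neither passed the test by itself. The pooled call was lost without T-bet + Plum replicate 1 (FDR = 0.0505), T-bet + Plum replicate 2 (FDR = 0.0861) or GFP + GATA3 replicate 2 (FDR = 0.0682) and was held without each of the other 5 libraries.

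The replicates of Ezh2 were far apart, with a difference of 0.61 on the log2 CPM scale in GFP + Plum and of 0.69 in T-bet + GATA3. Its 15 transcripts include 6 that code for protein, and the main one took 33.4% to 70.7% of the counts. In coding TPM Ezh2 was at 54.0 to 81.7 without T-bet and at 24.8 to 50.4 with it.

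Suz12 (ENSMUSG00000017548.15, chr11:79993106-80034123, plus strand) had a log2 FC below 0, like Ezh2, but did not pass the test. It had 228 and 292 CPM in the GFP + Plum replicates, 268 and 270 in GFP + GATA3, 206 and 186 in T-bet + Plum and 181 and 238 in T-bet + GATA3. The highest T-bet library overlapped the lowest of the others. The log2 FC was -0.38 (SE 0.12, edgeR FDR = 0.0684). It was at an FDR between 0.00941 and 0.0458 in 5 of 6 alternative analyses and at 0.117 with offsets for transcript length, so its side of the threshold depends on the method. In coding TPM it was at 57.7 to 67.2 without T-bet and 37.5 to 54.2 with it.

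The ratio of Ezh2 to Suz12 in coding TPM was 0.935 to 1.21 in the libraries without T-bet and 0.583 to 0.930 in the T-bet libraries. With all transcripts counted the ranges overlapped, at 0.813 to 1.01 and 0.602 to 0.819. Ezh1, which encodes the other catalytic subunit of PRC2, had a log2 FC of 0.32 (SE 0.11) in the T-bet lines and was not called (edgeR FDR = 0.0831). Ezh2 was 11.6 to 21.7 times the level of Ezh1 in coding TPM without T-bet and 4.99 to 9.42 times with it.

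Of 14 genes on the PRC2 list 12 could be tested, of which 1 rose and 2 fell in the T-bet lines. Over all genes tested 8.55% rose and 6.61% fell. Jarid2, a subunit that guides PRC2 to its targets, rose 2.07-fold (log2 FC = 1.05, SE 0.11, edgeR FDR = 0.000771) at a low level of 2.76 to 4.33 TPM with T-bet. Without T-bet it was at 2.0 to 3.8 TPM, so the groups overlapped in TPM, though all T-bet libraries were higher in CPM. Phf19, a subunit that reads methylated lysine 36 of histone H3, fell along with Ezh2 (log2 FC = -0.76, FDR = 0.0433). The core subunits Eed (log2 FC = 0.12, FDR = 0.524) and Rbbp4 (log2 FC = -0.44, FDR = 0.0619) were not called. Of 18 genes for subunits of PRC1, some forms of which bind the mark of PRC2, 7 fell and 1 rose. Phc1 had a log2 FC of -0.81 (SE 0.12, FDR = 0.00278) and Cbx6 of -0.72 (SE 0.09, FDR = 0.00127). The median log2 FC was -0.19 for PRC2 and -0.20 for PRC1.

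In a list of 16 genes of proliferation and DNA replication, added after the values of Ezh2 were seen, 7 fell in the T-bet lines and none rose. The share of all genes tested that fell was 6.61%. All 16 had a log2 FC below 0, with a median of -0.60. In CPM the 7 that fell were lower in each T-bet library than in every other library, as 10.2% of all genes tested were. These 7 were picked by a call in the same comparison, so this split is no further evidence. The groups overlapped for the other 9. The proliferation marker Mki67 had a log2 FC of -1.44 (SE 0.20, edgeR FDR = 0.00270), at 7.21 to 15.4 TPM with T-bet and 26.7 to 32.6 TPM without it. Top2a, the topoisomerase of dividing cells, had a log2 FC of -1.49 (FDR = 0.00850), the cyclin gene Ccnb1 of -1.37 (FDR = 0.0105) and the replication clamp gene Pcna of -0.56 (FDR = 0.0193). Ezh2 is itself known to rise in dividing cells. The part of proliferation in the levels of Ezh2, Suz12 and the other genes was not tested.

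**Figure D2:**
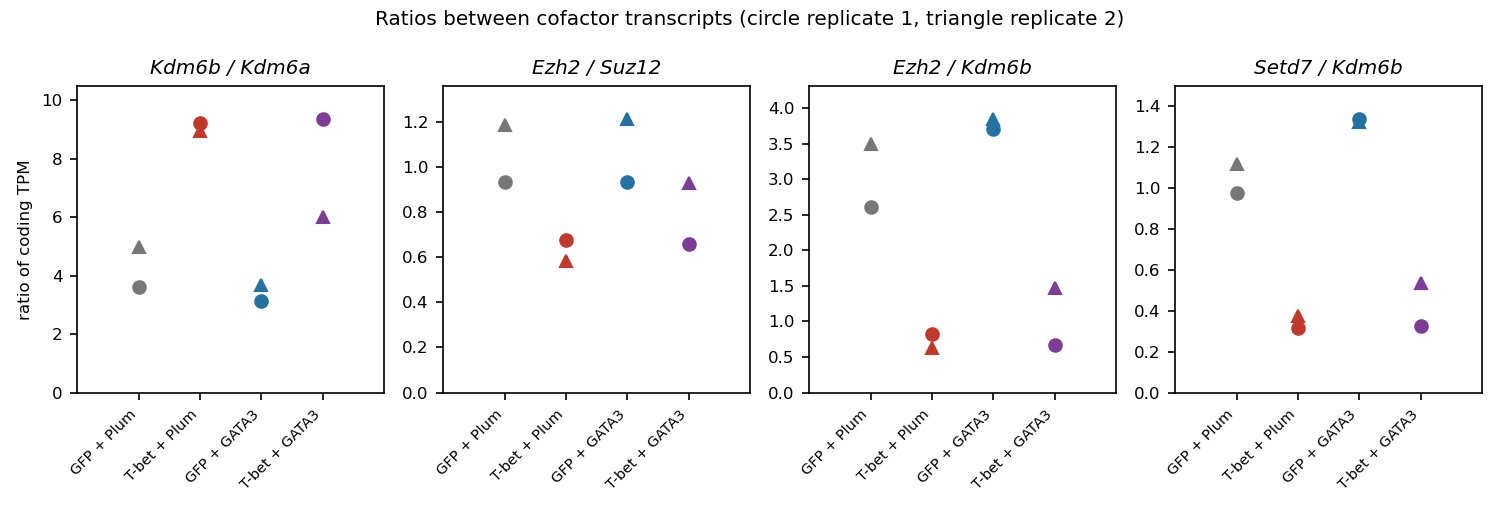
Ratios of coding TPM (y axes, from 0) in the 8 libraries by line (x axes), with circles for replicate 1 and triangles for replicate 2. The ratio of Ezh2 to Kdm6b is 2.61 to 3.85 without T-bet and 0.628 to 1.47 with it, and that of Kdm6b to Kdm6a is higher in the 4 T-bet libraries.

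The increase of Kdm6b and the decrease of Ezh2 combined in their ratio. Ezh2 was 2.61, 3.50, 3.70 and 3.85 times the level of Kdm6b in coding TPM in the libraries without T-bet, and 0.821, 0.628, 0.669 and 1.47 times in the T-bet libraries. The writer of the lysine 27 mark thus had more RNA than this demethylase in all 4 libraries without T-bet and less in 3 of the 4 T-bet libraries, T-bet + GATA3 replicate 2 being the exception. This holds in coding TPM only, since with all transcripts counted the ratio was 3.56 to 4.61 without T-bet and 0.970 to 1.87 with it, and above 1 in both T-bet + GATA3 libraries. Suz12 was 2.79 to 3.96 times the level of Kdm6b without T-bet and 1.01 to 1.58 times with it, and Setd7 was 0.976 to 1.34 times without and 0.313 to 0.537 times with T-bet. These ratios follow from the levels already tested, so no test of their own was made.

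The RefSeq promoters of the 10 genes (GRCm38.p6, 250 bases before to 50 after a start) were searched, and 9 were found in the table, Kdm6b not among them. Neither GGTGTGA, the core letters of a T-box site, nor AGATAA, those of a GATA site, was present on either strand in any of the 9 windows. Of all 32851 promoters 3.98% and 11.2% held them, so 9 windows without a match are close to this background. The 9 windows were rich in G and C, at 62.7% to 78.3% against a median of 52.7% for all promoters, and held 21 to 41 CpG against a median of 7. The pentamer CCAAT, bound by NF-Y and found in many promoters of cell cycle genes, was searched after the expression values were seen. It was present 3 times in the Ezh2 window and 1 time each in those of Suz12, Chd4, Cdk9 and Med1, and 37.4% of all promoters held it on either strand. A match to these letters is no evidence that a factor binds there. The 100 bases before the start are shown for the PRC2 genes Ezh2 (chr6:47595031-47595130, minus strand) and Suz12 (chr11:79993006-79993105, plus strand), which both hold this pentamer, with CCAAT or its reverse complement in capitals.
Ezh2: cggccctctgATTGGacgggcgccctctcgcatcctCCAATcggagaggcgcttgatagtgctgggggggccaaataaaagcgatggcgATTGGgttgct
Suz12: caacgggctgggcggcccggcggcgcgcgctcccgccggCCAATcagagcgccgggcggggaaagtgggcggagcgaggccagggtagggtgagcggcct

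The remodeller genes Smarca4 and Chd4 were not called in any comparison. Smarca4 (ENSMUSG00000032187.16, chr9:21616169-21704230, plus strand) had 203 and 235 CPM in the GFP + Plum replicates, 222 and 254 in GFP + GATA3, 199 and 208 in T-bet + Plum and 206 and 211 in T-bet + GATA3. Its groups overlapped in CPM, with a log2 FC of -0.15 (SE 0.09, edgeR FDR = 0.319). In coding TPM, which is not TMM-scaled, Smarca4 was at 42.7 to 52.55 without T-bet and 35.3 to 40.7 with it. Chd4 (ENSMUSG00000063870.12, chr6:125095981-125130591, plus strand) had 429 and 725 CPM in the GFP + Plum replicates, 471 and 580 in GFP + GATA3, 492 and 678 in T-bet + Plum and 552 and 608 in T-bet + GATA3. The libraries of GFP + Plum alone differed by 0.76 on the log2 CPM scale, more than the lines did. The log2 FC of Chd4 was 0.08 (SE 0.18, FDR = 0.814) and fell below 0 when GFP + Plum replicate 1 or T-bet + Plum replicate 2 was left out.

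Of 23 SWI/SNF genes tested, Bcl7a alone fell in the T-bet lines (log2 FC = -0.75, edgeR FDR = 0.0123), at 1.61 to 2.20 TPM with T-bet, and none rose. The shares of all genes tested were 6.61% lower and 8.55% higher. Smarca2, the alternative ATPase, had a log2 FC of -0.44 (FDR = 0.0520), and the median of the 23 was -0.10. None of the 15 NuRD genes was called in edgeR, in which 1 had an unadjusted p below 0.05, and DESeq2 called 1. Their median was -0.08.

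The acetyltransferase gene Ep300 (ENSMUSG00000055024.12, chr15:81585351-81652077, plus strand) had 105 and 122 CPM in the GFP + Plum replicates and 113 and 126 CPM in GFP + GATA3. The T-bet + Plum replicates had 95.1 and 91.9 CPM, and T-bet + GATA3 had 86.8 and 92.8 CPM. The T-bet libraries lay below the others without overlap and close to each other. The decrease was 1.27-fold (log2 FC = -0.35, SE 0.09, edgeR FDR = 0.0358). It was the weakest of the 4 calls, since it was lost in 6 of the 8 fits with a library left out (FDR of up to 0.166, without GFP + GATA3 replicate 2) and with offsets for transcript length (FDR = 0.0866). The transcript with the largest share of its TPM, 35.0% to 47.1%, was a retained intron of 697 bases that took only 7.11% to 9.02% of the counts. In coding TPM Ep300 was at 15.5 to 21.5 without T-bet and 12.9 to 16.4 with it, which overlapped.

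Among 12 histone acetyltransferase genes, Ep300 and Ncoa1, a coactivator of nuclear receptors (log2 FC = -0.55, edgeR FDR = 0.0243), fell in the T-bet lines. Kat2a, the GCN5 enzyme of the SAGA complex, rose (log2 FC = 0.37, FDR = 0.0489). Over all genes tested 6.61% fell and 8.55% rose. Crebbp, the close relative of Ep300, had a log2 FC of -0.31 (FDR = 0.0896), and the median of the 12 was -0.09.

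Neither Cdk9 nor Med1 was called in any comparison. Cdk9 (ENSMUSG00000009555.16, chr2:32705784-32713076, minus strand) had 78.5 and 92.3 CPM in the GFP + Plum replicates, 75.7 and 87.6 in GFP + GATA3, 75.0 and 78.5 in T-bet + Plum and 71.4 and 76.7 in T-bet + GATA3. Its groups overlapped in CPM, with a log2 FC of -0.15 (SE 0.09, edgeR FDR = 0.353). In TPM Cdk9 was at 62.4 to 69.0 without T-bet and 45.5 to 61.2 with it, but in coding TPM the groups overlapped. Med1 (ENSMUSG00000018160.15, chr11:98152154-98193293, minus strand) had 153 and 186 CPM in the GFP + Plum replicates, 157 and 175 in GFP + GATA3, 140 and 143 in T-bet + Plum and 146 and 161 in T-bet + GATA3. Its groups also overlapped, with a log2 FC of -0.19 (SE 0.09, FDR = 0.237).

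Of 28 tested genes for P-TEFb, its regulators and elongation factors, Aff3 rose (log2 FC = 1.25, SE 0.26, edgeR FDR = 0.0156), beside 8.55% of all genes tested. Its level was low, at 0.812 to 1.69 TPM with T-bet and 0.243 to 1.16 TPM without it, which overlapped. The cyclin partner of Cdk9, Ccnt1, had a log2 FC of -0.21 (FDR = 0.162), and its inhibitor Hexim1 of -0.05 (FDR = 0.855). Of 33 Mediator genes 3 fell, beside 6.61% of all genes tested, and none rose. A log2 FC below 0 was found for 26 of the 33, where the median of all genes tested was 0.02. Those that fell were Med13l (log2 FC = -0.72, SE 0.11, FDR = 0.00350) and Med13 (log2 FC = -0.43, FDR = 0.0445), of the kinase module that binds Mediator reversibly, and Med30 (log2 FC = -0.35, FDR = 0.0485). The median was -0.11 for each of these 2 lists.

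**Figure D3:**
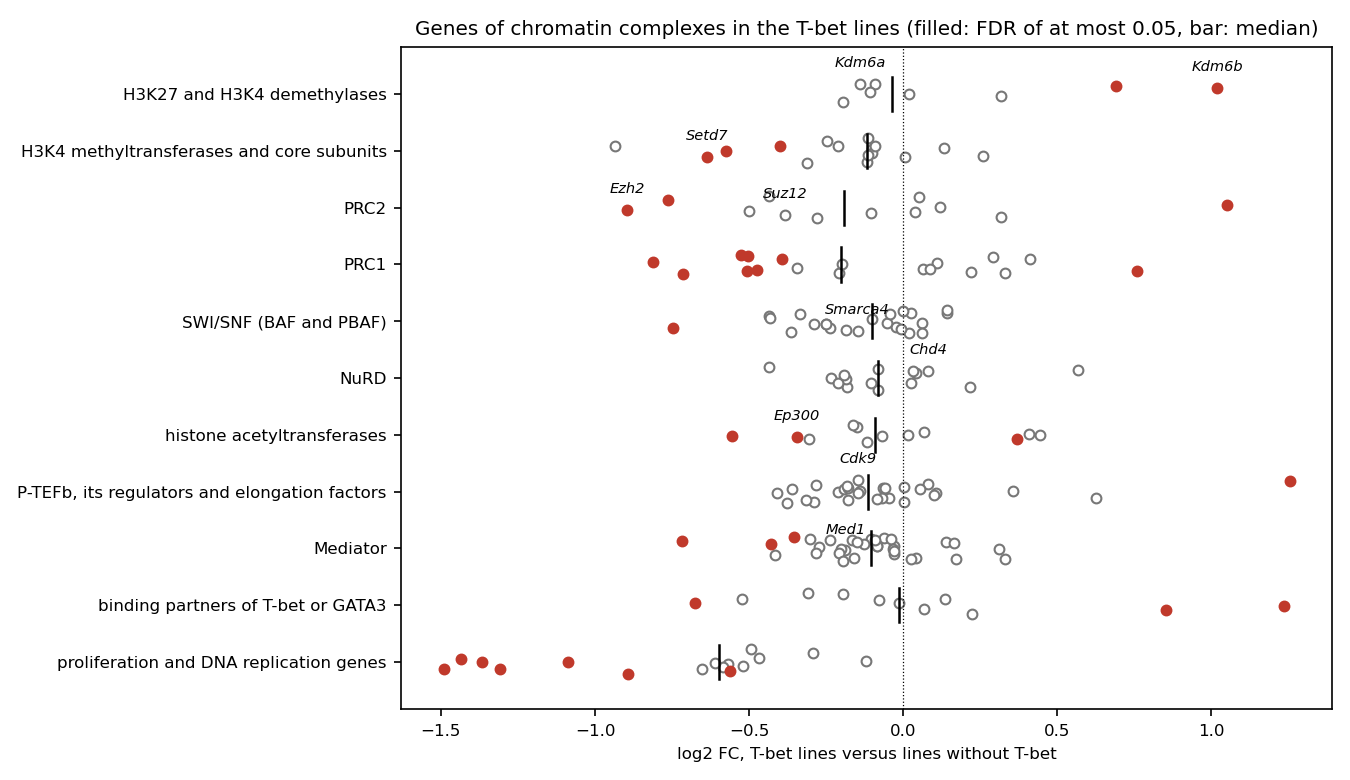
Log2 FC of T-bet lines versus lines without T-bet (x axis) for the tested genes of 11 lists (y axis), with filled points for an FDR of at most 0.05, bars for the median of a list and the 10 genes described here named. Kdm6b lies at 1.02 and Ezh2 at -0.90, and the list with the lowest median, -0.60, is that of proliferation and DNA replication.

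HA-GATA3 was not accompanied by a called difference in any of the 10 genes. Between GFP + GATA3 and GFP + Plum the log2 FCs lay between -0.23 (Kdm6b) and 0.12 (Smarca4), with standard errors of 0.12 to 0.27, and 0.0203% of all genes were called. Between T-bet + GATA3 and T-bet + Plum they lay between -0.07 (Kdm6b) and 0.43 (Ezh2), beside 0.0338% of all genes. In the comparison of the 4 HA-GATA3 libraries with the 4 others they lay between -0.15 and 0.23, beside 0.0608% of all genes. In edgeR 0 of the 10 genes reached an unadjusted p below 0.05 in any of these comparisons, in which 3.70%, 3.78% and 4.96% of all genes did, and DESeq2 also called 0 of them. Gata3 itself was at 283 and 326 CPM in GFP + GATA3 and at 204 and 165 CPM in T-bet + GATA3. This pairwise difference was not called (log2 FC = -0.73, edgeR FDR = 0.0789).

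Whether the effect of T-bet differed with HA-GATA3 present was tested by the interaction. The interaction was between -0.13 (Ep300) and 0.38 (Ezh2) on the log2 scale, with standard errors of 0.18 to 0.38. None of the 10 genes was called in edgeR or DESeq2, and 0 reached an unadjusted p below 0.05. Over all genes edgeR called 0 (0.00%), 381 (2.58%) had an unadjusted p below 0.05, and DESeq2 called 12. The 10 genes thus had the same sign of T-bet effect without and with HA-GATA3, but for Chd4 both values (0.02 and 0.14) were smaller than their standard errors, and the first turned to -0.01 with DESeq2 or with library size only.

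**Figure D4:**
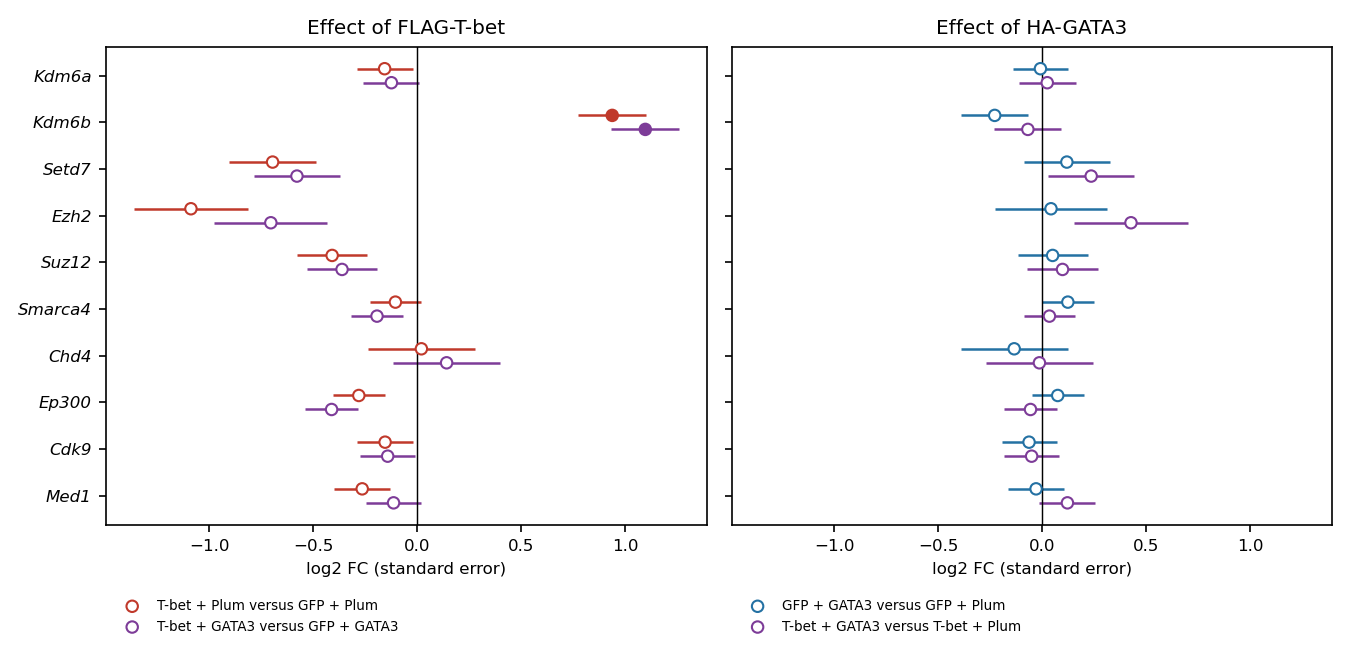
Log2 FC with its standard error (x axes) of the 10 genes (y axis) for FLAG-T-bet without and with HA-GATA3 (left) and for HA-GATA3 without and with FLAG-T-bet (right), with filled points for an FDR of at most 0.05. Kdm6b is the only filled gene, at 0.94 and 1.10, and all GATA3 effects lie between -0.23 and 0.43.

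In mean coding TPM over the 8 libraries the order was Chd4 (96.2), Suz12 (54.8), Ezh2 (50.9), Cdk9 (48.8), Smarca4 (42.3), Med1 (32.2), Kdm6b (28.9), Setd7 (19.1), Ep300 (16.4) and Kdm6a (4.97). The lowest Chd4 library, at 76.6, was above the highest of Suz12, at 67.2, and the highest Kdm6a library, at 5.79, was below the lowest of Ep300, at 12.9. All other neighbours in this order overlapped between libraries. The order was not the same with and without T-bet. The median of Ezh2 was 69.5 without T-bet, next to that of Chd4 (95.7), and with T-bet it was 28.8, below that of Kdm6b (38.3). The T-bet gene Tbx21 was at 1.41 to 2.05 times the coding TPM of Kdm6b in the T-bet libraries, 1.39 to 2.76 times that of Ezh2, 0.600 to 0.694 times that of Chd4 and 12.3 to 15.5 times that of Kdm6a. In the libraries without T-bet it was at most 0.299 times the level of any of the 10 genes.

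**Figure D5:**
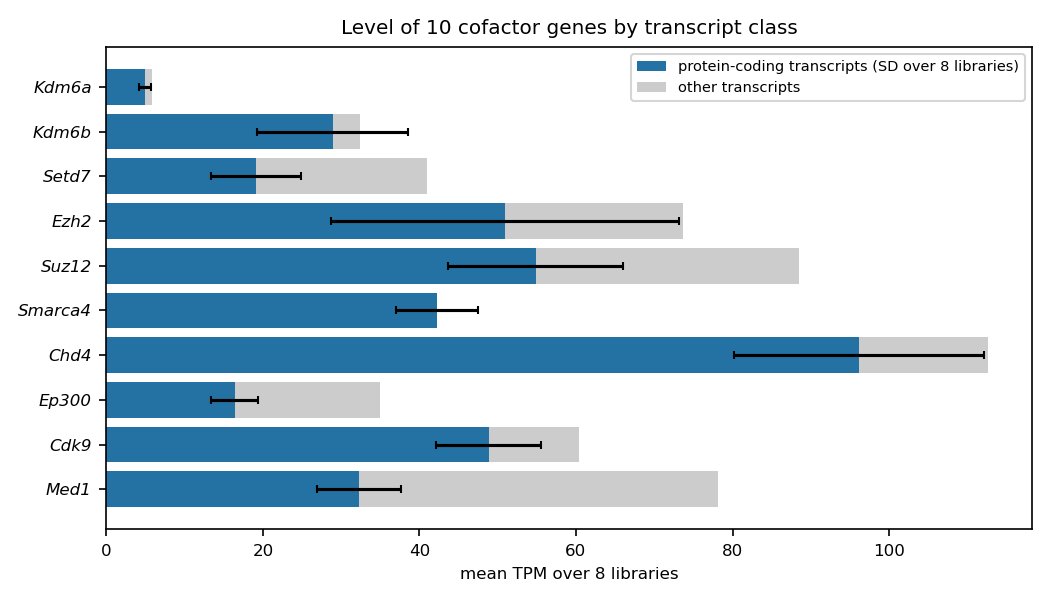
Mean TPM over the 8 libraries (x axis, from 0) of the 10 genes (y axis), divided into protein-coding transcripts (with SD over 8 libraries) and other transcripts. Chd4 has the highest coding level, 96.2 TPM, and the other transcripts take more than the coding ones in Setd7, Ep300 and Med1.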

How the data were processed

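RNA-seq libraries of 4 stimulated EL4 lines, 2 per line, were analysed. Reads were filtered and trimmed by the authors (FastQC, Trim Galore!) and assigned to GRCm38 transcripts with kallisto. The release is given as Gencode M18 in the labels and as M20 in the methods. The authors deposited estimated counts per library, which are not normalized, and TPM, which are scaled to the same total, for 136535 transcripts. Here both were summed per gene by the deposited gene identifier, with the counts rounded, and coding TPM were summed over protein-coding transcripts. Counts were tested in edgeR 4.0.16 (R 4.3.3) with filterByExpr, TMM and the quasi-likelihood test in 1 fit of the 8 libraries, and Benjamini-Hochberg adjustment over 14791 genes, with calls at an FDR of at most 0.05. The fits were tested on simulated data. The standard error of a log2 FC was taken from its F statistic. The smallest exact 2-sided p for 2 against 2 libraries is 0.333, so no such test was made. Positions come from Gencode M21 on GRCm38, in which all 10 genes had the same identifier version.

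Alternatives were DESeq2 1.42.0, scaling by library size only, no filter, offsets for transcript length, the replicate number as a block, a log2 FC above 1.5 in size in addition, a fit of only the libraries compared, and each library left out. A fit of protein-coding transcripts only was added after the data were seen. The 10 genes and the gene lists were chosen with earlier results of these data known. Genes were named by rule: the 10 genes, Tbx21 and Gata3, and up to 3 genes per list with the smallest FDR over the 4 lines. Other genes named from a list were chosen after their values were seen. Values of some genes on the lists are not reported here. Of 200 genes on the lists 1 was not found and 1 was matched by an older symbol. A depth of 8038284 to 16003190 counts makes 3 counts worth 0.188 to 0.373 CPM. Other annotated genes that overlap the 10 had at most 33.5 counts in a library.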

Additional observations from a re-analysis of the deposited data

How the results depend on the processing

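In the pooled T-bet comparison 4 of the 10 genes were called, 1 to 5 with a library left out: 1 without either T-bet + Plum library or GFP + GATA3 replicate 2, 2 without T-bet + GATA3 replicate 1 or GFP + Plum replicate 2, and 3 without GFP + GATA3 replicate 1. None was called at a log2 FC above 1.5 in size, which gave 0 in every comparison, beside 4.5% of all genes in the pooled one. Over all genes the pooled comparison called 15.2%. It called 13.5% with DESeq2, 10.3% with no filter, 13.1% with length offsets and 20.7% with the replicate block. A fit with a library left out has 1 line with 1 library, so a call lost there cannot be read as a trait of these genes. In most of these fits the share of all genes called was also lower than with all 8 libraries. Without HA-GATA3, T-bet + Plum against GFP + Plum had 1 call, and 3 with DESeq2, no filter, length offsets or the replicate block, 2 in a fit of the 4 libraries compared and 0 to 2 with a library left out (0 without either T-bet + Plum library, 2 without either T-bet + GATA3 library), and the 1 call without GFP + Plum replicate 1 was Ezh2 (FDR = 0.0351) in place of Kdm6b. T-bet + GATA3 against GFP + GATA3 had 1 call, and 3 with no filter, 2 with length offsets or the replicate block, and 0 without replicate 1 of either line, 1 otherwise. T-bet + GATA3 against GFP + Plum had 1 call, and 2 with no filter or the replicate block, 0 in a fit of the 4 libraries compared, and 0 to 1 with a library left out (0 without either T-bet + Plum library or replicate 1 of GFP + Plum or T-bet + GATA3). The test over the 4 lines had 1 call, and 3 with DESeq2, no filter or the replicate block, 2 with length offsets, and 1 to 2 with a library left out (2 without GFP + Plum replicate 1 or T-bet + GATA3 replicate 2). DESeq2 called 5 PRC2 genes in the pooled T-bet comparison where edgeR called 3, and 2 SWI/SNF genes where edgeR called 1. Shares of all genes called are given for DESeq2, no filter, length offsets and the replicate block. They were 7.6%, 6.4%, 5.3% and 9.7% in T-bet + Plum against GFP + Plum. They were 7.7%, 6.3%, 5.0% and 9.3% in T-bet + GATA3 against GFP + GATA3. They were 6.5%, 5.5%, 4.2% and 7.5% in T-bet + GATA3 against GFP + Plum. In the test over the 4 lines they were 10.1%, 9.1%, 6.3% and 11.3%. A fit of only the 4 libraries compared called 4.9% of all genes in T-bet + Plum against GFP + Plum. It called 2.1% in T-bet + GATA3 against GFP + Plum and 6.6% in T-bet + GATA3 against GFP + GATA3. In these pairwise and 4-line tests the further genes called were Setd7 and Ezh2. The cause was not tested. The log2 FC of Chd4 reversed in T-bet + Plum against GFP + Plum, at -0.0073 with DESeq2, -0.0067 with library size only, -0.0151 with no filter and -0.313 to 0.452 with a library left out. Left-out ranges that crossed 0 were also -0.0859 to 0.297 (Chd4, pooled T-bet), -0.0029 to 0.301 (Chd4, T-bet + GATA3 against GFP + GATA3) and -0.2105 to 0.0084 (Smarca4, T-bet + Plum against GFP + Plum). The GATA3 comparisons and the interaction gave 0 calls in every setting. The replicate numbers are not stated to mark a shared day, and same-numbered libraries correlated at -0.0455 to 0.302 in their deviations from the line means, so the replicate block is given here only. With 2 libraries per line, the standard errors of the pairwise comparisons were 0.12 to 0.28, and a log2 FC as large as -1.09 (Ezh2, SE 0.28) was not called.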

Other observations

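Of 11 tested binding partners of T-bet or GATA3 that are no chromatin enzymes, 2 rose and 1 fell in the T-bet lines, and their median log2 FC was -0.01. Over all genes tested 8.55% rose and 6.61% fell. Runx1, a DNA-binding partner of T-bet, rose 2.35-fold (log2 FC = 1.23, SE 0.19, edgeR FDR = 0.00436), at 7.40 to 11.5 TPM with T-bet and 2.91 to 5.92 TPM without it. Lmo4, a LIM domain adaptor, rose 1.80-fold (log2 FC = 0.85, SE 0.13, FDR = 0.00434). Fli1, an ETS factor, fell 1.60-fold (log2 FC = -0.68, SE 0.12, FDR = 0.00831).

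The genes most like Kdm6b, Ezh2 and Setd7 were taken by Pearson's r of log2 CPM over the 8 libraries, among 11064 protein-coding genes. With 8 libraries that fall into lines with and without T-bet, many genes reach a high r, and it is given as a description only. For Kdm6b they were Zfp263 (r = 0.990), Hacd2 (r = 0.989) and the NF-kappaB gene Nfkb1 (r = 0.988), of which Nfkb1 had a log2 FC of 0.84 in the T-bet lines (SE 0.09, edgeR FDR = 0.000801). For Ezh2 they were Ppp1cb (r = 0.995), Kpna2 (r = 0.994) and the mitotic helicase gene Ercc6l (r = 0.991), of which Ercc6l had a log2 FC of -1.01 (SE 0.19, FDR = 0.00935). For Setd7 they were Galnt1 (r = 0.994), Cyp2j6 (r = 0.993) and Cltc (r = 0.991).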
